A study of Drosophila melanogaster with 11 samples.

Results

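Newly made RNA was compared between Kc167 cells depleted of Mod(mdg4)67.2 and mock-transfected cells, and the genes whose labelled RNA was higher or lower after *mod(mdg4)* knockdown were described by function and class. The comparison used 6 of the 11 libraries of the series: the 2 titled as *mod(mdg4)* knockdown (replicates 1 and 2) and the 4 mock libraries (replicates 1 to 4). A pair of columns of the gene table under one duplicated heading was left out. Kc167 is a line from female *Drosophila* embryos, here grown in monolayer, so that every value comes from 1 cell line.

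In the knockdown group, 10000000 cells were electroporated with 5 µg of dsRNA against the Mod(mdg4)67.2 isoform, and in the mock group with no RNA. After 5 days, both groups were given 0.2 mM 5-ethynyl uridine (EU) for 1 h, and the labelled RNA was fragmented, captured and sequenced (neuRNA-seq). Mock cells received no dsRNA of another sequence, so depletion of the protein and a response to dsRNA cannot be told apart. The *mod(mdg4)* gene was not analysed here, and the knockdown libraries were therefore not checked against their target. The labels do not say that the libraries came from separate cultures, and p-values measure the spread between these libraries.

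The *mod(mdg4)* locus encodes a large set of BTB-domain proteins made by alternative splicing, which share an N-terminal part and differ at the C terminus. The 67.2 isoform binds the zinc-finger protein Su(Hw) and, together with CP190, forms the core of the *gypsy* insulator, a chromatin complex that can keep an enhancer from acting on a promoter when it lies between them. An EU pulse captures RNA made during the labelling time, so reads over introns count towards a gene as well as reads over exons.

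Total counts were between 24944604 and 29680851 in mock libraries and were 11808443 and 7462623 in knockdown replicates 1 and 2. At these depths 3 counts are worth 0.101 to 0.402 CPM by library total (CPM is a gene's count scaled to a common library size, and the other CPM values use normalised library sizes), which covers counting error only. Mock replicates 1 and 2 had a correlation of log2 CPM across genes of 0.998, mock replicates 3 and 4 one of 0.997, and the 4 pairings between them were lower, from 0.988 to 0.993. The knockdown replicates were less alike than any pair of mock libraries, at 0.966. Knockdown replicate 1 had correlations of 0.979 to 0.986 with the mock libraries, and replicate 2 had 0.964 to 0.972. Except for replicate 2 with mock replicate 3, each knockdown library was thus closer to every mock library than to the other knockdown library. These correlations are across genes, which are not independent. Because CPM values are relative to the library, a change in the total amount of labelled RNA would not be seen, and in bulk cells a lower share of expressing cells and less RNA per cell cannot be told apart.

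The labels give the line and the sex but no cell type. Of 13 hemocyte markers, 9 had at least 10 CPM in every library, among them *srp*, *ush*, *Hml* and *Pxn*, whereas *NimC1*, *eater*, *He* and *Sr-CI* had at most 1.67 CPM. The summed level of the 13 was 8614 to 10610 CPM in mock libraries and 8999 and 6745 CPM in knockdown replicates 1 and 2. Of the 3 germline markers none reached 10 CPM, and the fat body markers *Lsp2* and *Fbp1* had no count in any library. The summed level of the 5 fat body markers was 17.03 to 20.6 CPM in mock libraries and 10.8 and 3.41 CPM after knockdown. Nearly all of it came from *Lsp1beta*. Of 4 neuron markers, *elav* (78.03 to 129 CPM in mock) and *brp* (339.5 to 404 CPM) were expressed. The other neuron markers, *nSyb* (1.773 to 2.245 CPM in mock) and *Syt1* (0.0695 to 0.524 CPM), were low.

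Relative to mock cells, 29 genes were upregulated and 37 downregulated after *mod(mdg4)* knockdown, of 9066 genes that passed edgeR's expression filter (an adjusted p under 0.05 by edgeR's quasi-likelihood test, with the adjustment of Benjamini and Hochberg). These are 0.32% and 0.408% of tested genes, 0.728% together. For each of the 66 genes both knockdown libraries lay outside the range of the 4 mock libraries. Over all tested genes this was so for 14.6% above the mock range and 16.7% below it. Most changes were modest, with medians of 0.97 and -1.07 on the log2 scale, and 12 upregulated and 21 downregulated genes changed at least 2-fold. The called genes varied little among mock libraries, with a median SD of 7.43% (upregulated) and 8.02% (downregulated) of the mean against 14.8% over all tested genes. The test that called them used these same libraries and favours genes of low spread, so this is a description. The calls depended on the number of mock libraries: without any 1 of the 4, no gene was upregulated and 0 to 2 were downregulated (*CG45061* and *CG9570*), although 604 to 690 higher and 741 to 858 lower genes had an unadjusted p below 0.05 in those fits. A fit without 1 of the knockdown replicates holds a lone knockdown library, which is assumed to vary like the mock libraries. Passing in such a fit does not show replication. Without knockdown replicate 2, 14 of the 29 and 20 of the 37 genes still passed, among them *su(Hw)*, *w*, *Pvf3*, *Lmpt*, *Tdh*, *magu*, *bowl*, *Sox14*, *SoxN*, *Non1*, *Rack1*, *RpS4* and *RpS13*, and without replicate 1 all 66 did. Those that did not pass without replicate 2 were *AhcyL1*, *brk*, *bru2*, *CG12112*, *CG15322*, *CG32695*, *CG42240*, *CG9281*, *COX7AL*, *cpb*, *DAAM*, *eIF3h*, FBgn0039959, *lncRNA:CR44999*, *mew*, *MFS17*, *Mmp1*, *Myo31DF*, *Nipped-A*, *Orcokinin*, *path*, *Pbgs*, *Ptth*, *Pzl*, *r-cup*, *wake*, 1 gene not reported here and 5 ribosomal protein genes. DESeq2 gave 324 upregulated and 490 downregulated genes, and with scaling by library size alone 51 genes were upregulated and 28 downregulated, the median over all tested genes then being 0.12 instead of 0.00, so that medians of gene classes are read relative to it.

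**Figure D1:**
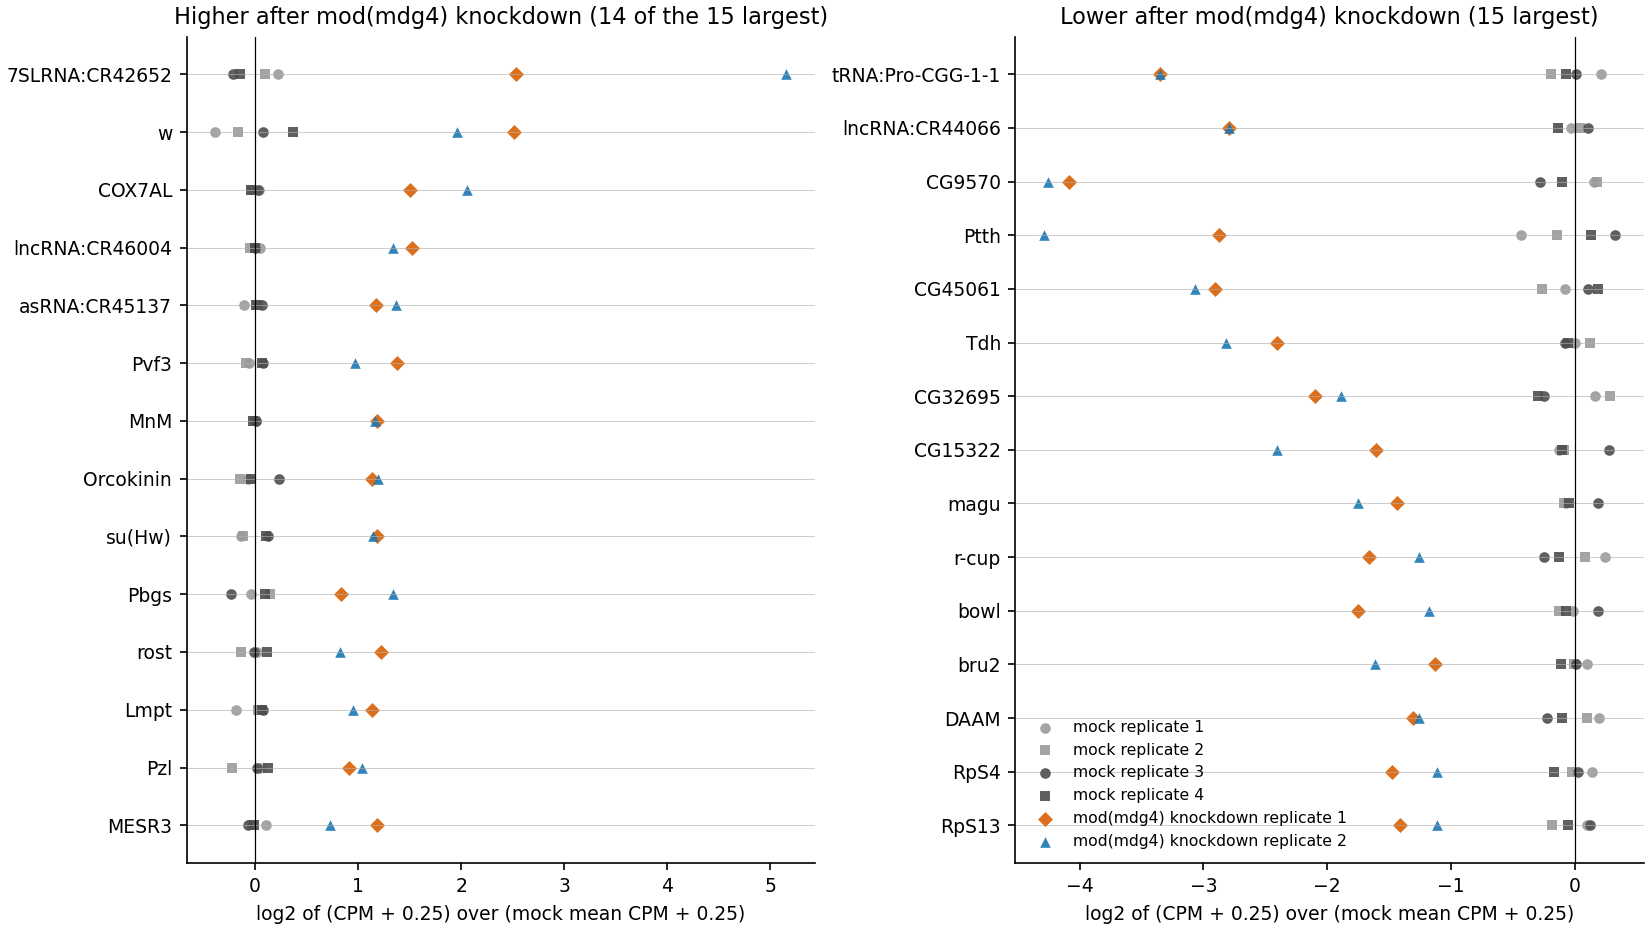
Labelled RNA of 14 of the 15 genes with the largest increases and the 15 with the largest decreases among those past the threshold, as log2 of CPM plus 0.25 over the mock mean plus 0.25 (horizontal axis). Each row is a gene and each point a library: circles and squares are the 4 mock libraries, diamonds knockdown replicate 1 and triangles knockdown replicate 2. In every row both knockdown libraries lie beyond the mock libraries, and they are farthest apart for *7SLRNA:CR42652*, with 34.5 and 213 CPM.

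Among genes of insulator and architectural proteins, the gene encoding the direct partner of Mod(mdg4)67.2 rose. *su(Hw)* (FBgn0003567, chromosome 3R, 14304455 to 14308589) had 72.1, 73.3, 86.9 and 85.5 CPM in mock replicates 1 to 4 and 181 and 175 CPM in knockdown replicates 1 and 2, a log2 fold change of 1.16 (SE 0.12, adjusted p = 0.0225). Both knockdown libraries were thus above all mock libraries. The knockdown replicates differed by less than the full range of the 4 mock libraries. Mock replicates 1 and 2, and mock replicates 3 and 4, were each closer together than the knockdown replicates. Without any 1 of the mock libraries the log2 fold change was 1.12 to 1.20, with adjusted p-values of 0.0776 to 0.121. *su(Hw)* was the 1 of 36 tested genes of the list that passed the threshold (2.78%, beside 0.32% of all tested genes that rose). *Cp190*, which encodes another core component of the *gypsy* insulator, had 347, 382, 469.6 and 447 CPM in mock replicates 1 to 4 and 465 and 349 CPM in knockdown replicates 1 and 2, so that the groups overlapped (log2 fold change -0.01, SE 0.17, adjusted p = 0.975). The median of the list was -0.01, beside 0.00 over all tested genes. Of its members, 6 (16.7%) lay above and 8 (22.2%) below the mock range, against 14.6% and 16.7% over all tested genes. *CTCF* (0.03), *BEAF-32* (0.03) and *M1BP* (0.11, log2 fold changes) overlapped with mock. *Zif* (-0.55, adjusted p = 0.115) and *Rm62* (-0.40, adjusted p = 0.115) lay below the mock range and did not pass.

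The promoter region of *su(Hw)* holds matches to Motif 1, the core promoter element bound by M1BP, and these are shown because this is the insulator gene that changed. A supplementary table of the study lists such matches within 1000 bases of gene starts. That table was held in shortened form, with 1999 matches. Matches, 5′ to 3′, are given for *su(Hw)* and for *RpL32*, *CG9281*, *Myo31DF* and *Lmpt*. Capitals mark GGTCACAC, read on either strand. No other motif was searched.
su(Hw), window chr3R:14307589-14309589, bases 986 to 1000, - strand: gcaacGGTCACACtg
su(Hw), same window, bases 1496 to 1510, + strand: gccacGGTCACACtt
RpL32, window chr3R:30045161-30047161, bases 1739 to 1753, + strand: gcgacGGTCACACtg
CG9281, window chrX:15709539-15711539, bases 1091 to 1105, + strand: gttaaGGTCACACtg
CG9281, same window, bases 1114 to 1128, + strand: gcgaggggcacactg
Myo31DF, window chr2L:10505779-10507779, bases 1305 to 1319, + strand: agttcGGTCACACtg
Lmpt, window chr3L:16864295-16866295, bases 959 to 973, + strand: gctacgttcacactg
Windows are in dm6 coordinates and span 1000 bases on each side of the annotated start. Bases and strands are as the table gives them, and 1 of the 2 matches of *su(Hw)* lies next to the start. The *Lmpt* match and the second of *CG9281* lack the capitals. Of all tested genes, 15.3% had a match in the part of the table held and 8.14% one with GGTCACAC. Those with a match included upregulated (*su(Hw)*, *Myo31DF*, *Lmpt*) and downregulated genes (*RpL32*, *CG9281*). Called genes from part of the genome were left out of this listing, so other called genes may also have a match. The number of genes listed can therefore not be set against these shares.

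The protein-coding genes with the largest increases had different roles. *w*, which encodes an ATP-binding cassette transporter of eye pigment precursors, had 1.10, 1.32, 1.61 and 2.01 CPM in mock replicates 1 to 4 and 9.82 and 6.59 CPM in knockdown replicates 1 and 2, a log2 fold change of 2.44 (SE 0.34, adjusted p = 0.0330). It was lowly expressed in mock cells and 5.45-fold higher after knockdown. *w* lies inside the much longer gene *kirre* on the opposite strand, and *kirre* was also above the mock range, at 92.5 and 82.5 CPM against 40.5 to 68.9 CPM in mock libraries, without passing the threshold (adjusted p = 0.167). *COX7AL*, named for its likeness to a cytochrome c oxidase subunit, had 1.29, 1.22, 1.27 and 1.21 CPM in mock replicates 1 to 4 and 3.997 and 5.98 CPM in knockdown replicates 1 and 2, a log2 fold change of 1.99 (SE 0.34, adjusted p = 0.0485). Its counts were 30 to 35 in mock libraries and 48 and 49 after knockdown, in smaller libraries. *MnM* had 21.5, 21.4, 21.5 and 21.02 CPM in mock replicates 1 to 4 and 48.8 and 48.3 CPM in knockdown replicates 1 and 2, a log2 fold change of 1.18 (SE 0.13, adjusted p = 0.0225), with hardly any spread within either group. *Orcokinin*, a neuropeptide gene, had 13.3, 12.7, 16.5 and 13.7 CPM in mock replicates 1 to 4 and 31.2 and 32.3 CPM in knockdown replicates 1 and 2, a log2 fold change of 1.18 (SE 0.17, adjusted p = 0.0345).

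Other upregulated genes encode a signalling ligand, an integrin, a matrix protease and proteins of other roles. *Pvf3*, which encodes a PDGF- and VEGF-related ligand of the receptor Pvr and spans 59508 bases, had 24.3, 23.7, 26.6 and 26.5 CPM in mock replicates 1 to 4 and 65.9 and 49.7 CPM in knockdown replicates 1 and 2, a log2 fold change of 1.20 (SE 0.16, adjusted p = 0.0255). Of 34 tested genes of EGFR, FGFR and PVR signalling, 14.7% lay above and 26.5% below the mock range (14.6% and 16.7% over all tested genes). In this list *Pvf3* was the 1 that rose (2.94%, beside 0.32% of all tested genes). *Ptth*, whose product is the ligand of the receptor tyrosine kinase Torso, was the 1 that fell (2.94%, beside 0.408%). The related ligand gene *Pvf2* (885 and 709 CPM, mock 584, 561, 669.5 and 670.1 CPM) lay above the mock range without passing the threshold, and *Pvr* overlapped with mock (479.9 and 335 CPM, mock 331, 318, 339 and 331 CPM). *rost*, known for its role in myoblast fusion, had 18.4, 16.4, 18.04 and 19.7 CPM in mock replicates 1 to 4 and 42.6 and 32.3 CPM in knockdown replicates 1 and 2, a log2 fold change of 1.05 (SE 0.17, adjusted p = 0.0446). *Lmpt*, which encodes a LIM domain protein, had 106, 122, 127 and 126 CPM in mock replicates 1 to 4 and 264 and 233 CPM in knockdown replicates 1 and 2, a log2 fold change of 1.05 (SE 0.12, adjusted p = 0.0225). In each of these genes both knockdown libraries were above all mock libraries. Of 52 tested genes of integrins, matrix and adhesion, 23.1% lay above and 15.4% below the mock range (14.6% and 16.7% over all tested genes), with a median of 0.08. Of these, 2 rose and none fell, beside 0.32% and 0.408% of all tested genes: *mew*, the integrin subunit αPS1 (log2 fold change 0.86, SE 0.11, adjusted p = 0.0255), and *Mmp1*, a matrix metalloproteinase (0.81, SE 0.12, adjusted p = 0.0345). *Mmp1* is also on the list of JNK and early response genes, where it was the 1 called of 18 tested. In that list 5 members lay above and 5 below the mock range, and the median was -0.15. Above mock without passing were *puc* (0.50, adjusted p = 0.101) and *Atf3* (0.59, adjusted p = 0.0723).

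The remaining upregulated genes with large changes encode an enzyme, a channel and a protein of less clear role. *Pbgs*, porphobilinogen synthase of the heme pathway, had 36.9, 42.05, 32.4 and 40.7 CPM in mock replicates 1 to 4 and 67.9 and 96.2 CPM in knockdown replicates 1 and 2, a log2 fold change of 1.11 (SE 0.18, adjusted p = 0.0446). *Pzl*, which encodes a Piezo-like channel, had 18.2, 15.02, 17.8 and 19.2 CPM in mock replicates 1 to 4 and 33.2 and 36.2 CPM in knockdown replicates 1 and 2, a log2 fold change of 0.98 (SE 0.16, adjusted p = 0.0458). *MESR3* had 315, 287, 279 and 291 CPM in mock replicates 1 to 4 and 665 and 484 CPM in knockdown replicates 1 and 2, a log2 fold change of 0.97 (SE 0.14, adjusted p = 0.0365). *Pzl* is the longest called gene, spanning 709421 bases, of which 99.1% lie outside exons. Past the threshold with smaller changes were *Hsp70Ba* (0.95), *MFS17* (0.93), *wake* (0.91), *Prosap* (0.90), *CG12112* (0.90), *lovit* (0.89), *Myo31DF* (0.75), *path* (0.74), FBgn0039959 (0.72, no symbol in the table used) and *Nipped-A* (0.67, log2 fold changes). They include transporters (*MFS17*, *lovit*, *path*), a synaptic scaffold (*Prosap*), an unconventional myosin (*Myo31DF*) and the large subunit shared by the SAGA and Tip60 acetyltransferase complexes (*Nipped-A*). *Hsp70Ba* has near-identical copies, whose reads the counting could have split or dropped, and it was the member called among 22 tested heat shock and chaperone genes (4.55%, beside 0.32% of all tested genes that rose). Its copy *Hsp70Bb* had a log2 fold change of 0.59 (SE 0.15) and an adjusted p of 0.0961. Of the 22 genes, 13.6% lay above and 9.1% below the mock range (14.6% and 16.7% over all tested genes).

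Noncoding genes were 5 of the 29 upregulated genes and 1 of the downregulated, of 484 tested genes of that biotype. These are 1.03% and 0.207% of them, beside 0.32% and 0.408% of all tested genes. *lncRNA:CR46004* had 18.6, 17.4, 17.97 and 18.002 CPM in mock replicates 1 to 4 and 52.1 and 45.9 CPM in knockdown replicates 1 and 2, a log2 fold change of 1.45 (SE 0.14, adjusted p = 0.0137). *asRNA:CR45137*, which lies antisense to *sca*, had 18.2, 19.96, 20.6 and 19.7 CPM in mock replicates 1 to 4 and 44.6 and 50.9 CPM in knockdown replicates 1 and 2, a log2 fold change of 1.28 (SE 0.14, adjusted p = 0.0225). The mock libraries of both genes lay close together, and *sca* itself, which encodes a secreted protein of the Notch pathway, overlapped between groups, at 1.25 and 5.61 CPM after knockdown. *lncRNA:CR44999* (0.87) and *lncRNA:CR44206* (0.74) also rose. The first overlaps *Myc* on the same strand and the second contains *mir-184*, and reads on 2 genes of one strand are dropped by the counting as a rule.

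The upregulated gene with the largest log2 fold change was *7SLRNA:CR42652*, a gene for the RNA of the signal recognition particle, with 6.73, 6.16, 4.90 and 5.15 CPM in mock replicates 1 to 4 and 34.5 and 213 CPM in knockdown replicates 1 and 2, a log2 fold change of 4.43 (SE 0.57, adjusted p = 0.0252). Both knockdown libraries were above mock, but replicate 2 was far above replicate 1. Without replicate 2 the log2 fold change was 2.59, and without replicate 1 it was 5.19. The near-identical copy *7SLRNA:CR32864* had 367, 437, 319 and 319 CPM in mock replicates 1 to 4 and 225 and 1942 CPM in knockdown replicates 1 and 2, so that replicate 1 lay below mock and replicate 2 above it, and reads that match both copies equally are dropped by the counting. The 9 other tested genes for the RNA, protein subunits and receptor of the particle did not pass the threshold.

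Among downregulated genes, 2 had no count after knockdown. *tRNA:Pro-CGG-1-1* (chromosome X, 20025099 to 20025170) had 2.701, 1.98, 2.32 and 2.17 CPM in mock replicates 1 to 4, from 54 to 69 counts, and 0 counts in both knockdown libraries, which is at least 15.4-fold lower if 3 counts over both libraries are taken as the floor. *lncRNA:CR44066* (chromosome 2L, 2186975 to 2187970) had 1.45, 1.53, 1.61 and 1.33 CPM in mock, from 33 to 44 counts, and 0 counts after knockdown, at least 9.99-fold lower by the same floor. Their adjusted p-values were 0.0330 and 0.0446. *CG9570* had 726 counts over the mock libraries and 3 over the knockdown libraries, a ratio of 0.0217 with a 95% counting interval from 0.00446 to 0.0635 (exact binomial). Its values were 7.63, 7.79, 5.58 and 6.36 CPM in mock replicates 1 to 4 and 0.167 and 0.122 CPM in knockdown replicates 1 and 2, a log2 fold change of -5.47 (SE 0.46, adjusted p = 0.00927). *Ptth*, which encodes the hormone that drives ecdysone synthesis, had 3.37, 4.17, 5.88 and 5.11 CPM in mock replicates 1 to 4 and 0.416 and 0 CPM in knockdown replicates 1 and 2, a log2 fold change of -4.24 (SE 0.70, adjusted p = 0.0462). These 4 genes were low in mock cells, below 8 CPM in each mock library.

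A pair of downregulated genes are next to each other. *CG45061* (chromosome X, 9871098 to 9871702) had 24.1, 21.1, 27.4 and 28.996 CPM in mock replicates 1 to 4 and 3.16 and 2.81 CPM in knockdown replicates 1 and 2, a log2 fold change of -3.08 (SE 0.24, adjusted p = 0.00927). *CG32695* (chromosome X, 9872382 to 9874057) had 5.36, 5.84, 3.97 and 3.83 CPM in mock replicates 1 to 4 and 0.916 and 1.10 CPM in knockdown replicates 1 and 2, a log2 fold change of -2.24 (SE 0.38, adjusted p = 0.0485). They lie on the same strand of chromosome X with 679 bases between them, and both fell in both knockdown libraries. *tRNA:Pro-CGG-1-1* and *CG9570* also lie close, 26123 bases apart on the same strand, within the gene *Dop2R* on the opposite strand, which did not pass the threshold (log2 fold change -0.13, adjusted p = 0.917). Within 50 kb, the other neighbouring called genes changed in opposite directions: *MnM* rose and *RpL28* fell, and *Orcokinin* rose and *Sox14* fell. Chromosome X held 12 of the 37 downregulated genes (0.76% of its 1578 tested genes, 0.408% overall) and 4 of the 29 upregulated genes (0.253%).

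*Tdh*, which encodes threonine dehydrogenase, had 15.2, 16.6, 14.4 and 14.7 CPM in mock replicates 1 to 4 and 2.66 and 1.95 CPM in knockdown replicates 1 and 2, a log2 fold change of -2.70 (SE 0.24, adjusted p = 0.0108). *CG15322* had 8.10, 8.31, 10.8 and 8.22 CPM in mock replicates 1 to 4 and 2.75 and 1.46 CPM in knockdown replicates 1 and 2, a log2 fold change of -2.04 (SE 0.33, adjusted p = 0.0446). *magu*, which encodes a secreted protein of BMP signalling, had 24.4, 24.2, 29.2 and 24.9 CPM in mock replicates 1 to 4 and 9.33 and 7.44 CPM in knockdown replicates 1 and 2, a log2 fold change of -1.61 (SE 0.20, adjusted p = 0.0225). In these genes both knockdown libraries were well below every mock library, and for *CG15322* replicate 2 was also well below replicate 1. *r-cup* had 19.5, 17.4, 13.8 and 14.98 CPM in mock replicates 1 to 4 and 4.996 and 6.71 CPM in knockdown replicates 1 and 2, a log2 fold change of -1.49 (SE 0.25, adjusted p = 0.0458). *bru2*, an RNA-binding protein gene, had 20.2, 18.8, 19.01 and 17.4 CPM in mock replicates 1 to 4 and 8.49 and 5.98 CPM in knockdown replicates 1 and 2, a log2 fold change of -1.37 (SE 0.21, adjusted p = 0.0409). *DAAM*, which encodes a formin that nucleates actin filaments, had 15.8, 14.7, 11.8 and 12.8 CPM in mock replicates 1 to 4 and 5.41 and 5.61 CPM in knockdown replicates 1 and 2, a log2 fold change of -1.32 (SE 0.22, adjusted p = 0.0485). The last group was closer to mock, but again with no overlap.

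Developmental transcription factors were among the genes that fell. *bowl*, a zinc-finger factor of the odd-skipped family, had 23.5, 21.8, 27.2 and 22.7 CPM in mock replicates 1 to 4 and 6.91 and 10.4 CPM in knockdown replicates 1 and 2, a log2 fold change of -1.47 (SE 0.23, adjusted p = 0.0401). *brk*, the repressor of Dpp targets, had 363, 408, 471 and 456 CPM in mock replicates 1 to 4 and 203 and 180.2 CPM in knockdown replicates 1 and 2, a log2 fold change of -1.15 (SE 0.15, adjusted p = 0.0255), and it was the member called of 28 tested genes of TGF-beta and Hedgehog signalling (3.57%, beside 0.408% of all tested genes that fell). Of these 28, 17.9% lay above and 10.7% below the mock range, with a median of 0.03. *Sox14* had 284, 269, 274 and 271 CPM in mock replicates 1 to 4 and 149 and 124 CPM in knockdown replicates 1 and 2, a log2 fold change of -1.01 (SE 0.12, adjusted p = 0.0225), and it was the member called of 26 tested ecdysone genes (3.85%, beside 0.408%). Of these 26, 15.4% lay above and 42.3% below the mock range (14.6% and 16.7% over all tested genes), with a median of -0.15. *SoxN* had 110.5, 111, 116 and 109.6 CPM in mock replicates 1 to 4 and 58.3 and 54.8 CPM in knockdown replicates 1 and 2, a log2 fold change of -0.98 (SE 0.11, adjusted p = 0.0225). None of these genes showed overlap between the groups. Of 49 tested homeobox and other developmental transcription factor genes, 3 fell and none rose, beside 0.408% and 0.32% of all tested genes. In this list 10.2% lay above and 22.4% below the mock range, against 14.6% and 16.7% over all tested genes, and the median was -0.14. *sug*, a Gli-similar zinc-finger gene (-0.92, SE 0.11), and *Mer*, which encodes the Hippo pathway protein Merlin (-0.92, SE 0.12), also fell, at adjusted p of 0.0232 and 0.0252.

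Genes of the translation machinery were the largest group among the downregulated genes, of the 58 function lists examined. Of the 93 cytosolic ribosomal protein genes in the table, 86 were tested, 10 fell and none rose. In 46 of the 86 (53.5%) both knockdown libraries were below all mock libraries and in 1 above, against 16.7% and 14.6% over all tested genes. The median log2 fold change was -0.65, with quartiles of -0.86 and -0.33, beside 0.00 over all tested genes. The group was listed with earlier results of these data known, so its count is a description.

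*RpS4* had 631, 564, 581 and 508 CPM in mock replicates 1 to 4 and 206 and 264 CPM in knockdown replicates 1 and 2, a log2 fold change of -1.28 (SE 0.16, adjusted p = 0.0225). *RpS13* had 389, 319, 395 and 349 CPM in mock replicates 1 to 4 and 136 and 168 CPM in knockdown replicates 1 and 2, a log2 fold change of -1.26 (SE 0.15, adjusted p = 0.0225). In both genes knockdown replicate 1 was lower than replicate 2, and both replicates were below mock. *RpL6* (-1.07), *RpL4* (-1.02), *RpL37-1* (-0.90), *RpL28* (-0.86), *RpS24* (-0.85), *RpL18* (-0.83), *RpL27* (-0.79) and *RpL32* (-0.79) passed with smaller log2 fold changes. Both subunits were thus represented, with 3 genes of the small and 7 of the large subunit. *RpS4*, *RpL4* and *RpL28* host small nucleolar RNA genes in their bodies on the same strand. Of the ribosomal protein genes of at least 10 CPM that did not pass, *RpS5a* had the largest decrease (630.3, 529, 348 and 357 CPM in mock replicates 1 to 4 and 161 and 227 CPM in knockdown replicates 1 and 2, log2 fold change -1.26, SE 0.29, adjusted p = 0.0813), and its mock replicates 1 and 2 were well above 3 and 4. *RpL38* went the other way, at 45.1 and 187 CPM after knockdown, with replicate 2 alone above the mock range.

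The size of the decrease differed between the knockdown libraries. Relative to the mock mean, the median log2 ratio of ribosomal protein genes was -0.85 in knockdown replicate 1 and -0.48 in replicate 2, while in the mock libraries it was -0.02, -0.10, 0.14 and -0.04. Below the mock mean were 82 of 86 genes in replicate 1 and 69 in replicate 2, and 67 in both. Of all 9066 tested genes, 4789 were below it in replicate 1 and 4655 in replicate 2, and 2757 in both. These genes took 3.46% to 3.76% of all counts in mock libraries, 2.11% in knockdown replicate 1 and 3.24% in replicate 2. Taken against mock replicates 1 and 2 the median was -0.55, and against mock replicates 3 and 4 it was -0.66, but no ribosomal protein gene passed the threshold against either pair (39 and 48 lower at an unadjusted p below 0.05). Without any 1 of the mock libraries, none passed. A lone knockdown library is assumed to vary like the mock libraries, so passing with it does not show replication. Without knockdown replicate 2, 13 passed, but *RpL18*, *RpL27*, *RpL28*, *RpL32* and *RpL37-1* did not. DESeq2 called 34 lower.

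**Figure D2:**
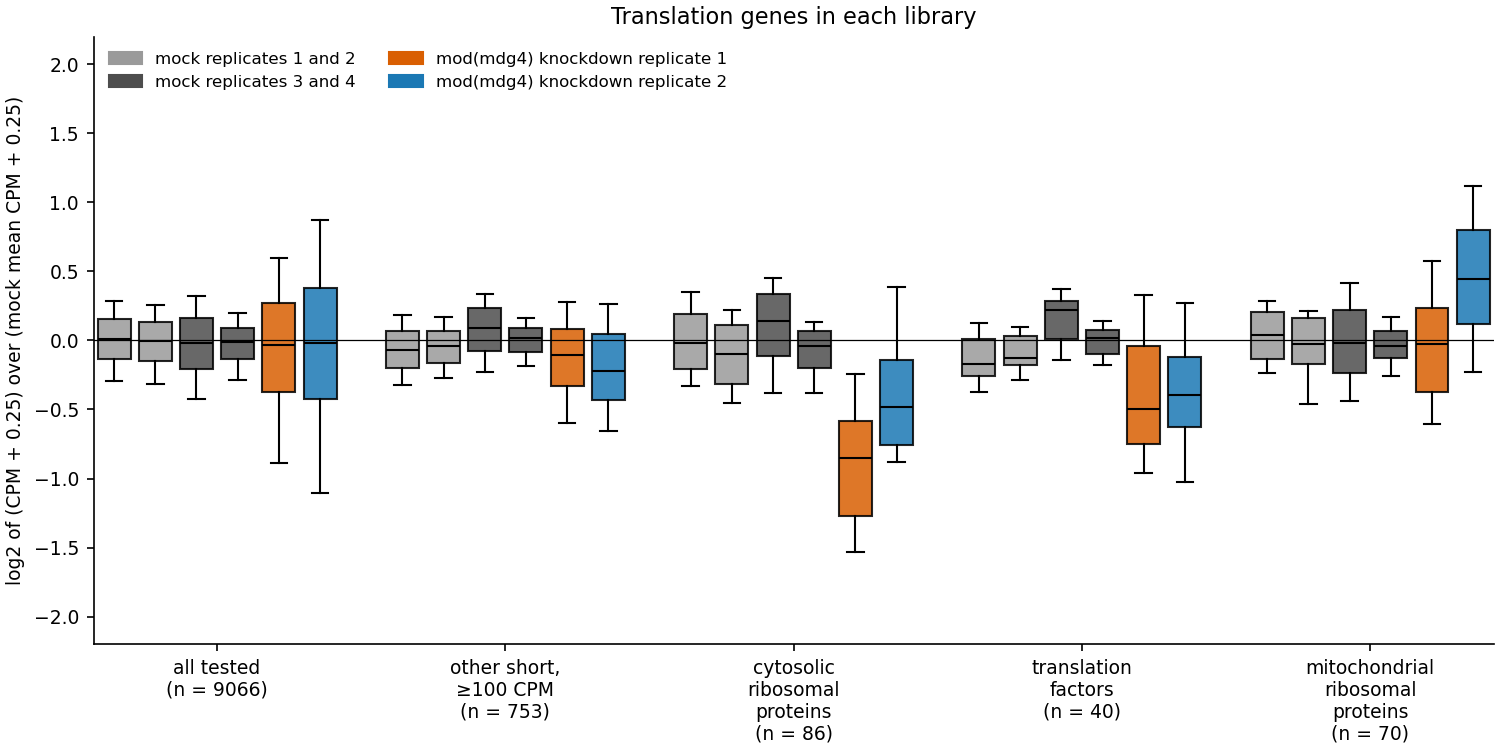
Log2 ratio of CPM to the mock mean (each plus 0.25, vertical axis) of all genes of a class in each library, with a box from the lower to the upper quartile, a line at the median and whiskers from the 10th to the 90th percentile. Boxes from left to right are mock replicates 1 to 4 (grey) and knockdown replicates 1 (orange) and 2 (blue). Ribosomal protein genes have medians of -0.85 and -0.48 in the knockdown libraries and lie between -0.10 and 0.14 in mock libraries, and mitochondrial ribosomal protein genes have 0.44 in knockdown replicate 2.

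Genes that work with the ribosome were also among those that fell. *eIF3k* (83.9 and 109 CPM, mock 186, 186, 176 and 165 CPM) and *eIF3h* (130.1 and 128 CPM, mock 217, 222, 247 and 221 CPM), which encode subunits of initiation factor eIF3, had log2 fold changes of -0.88 (SE 0.14) and -0.81 (SE 0.12) and adjusted p-values of 0.0446 and 0.0343. They were the 2 called of 40 tested initiation and elongation factor genes, of which 22 (55.0%) lay below and 10.0% above the mock range, with a median of -0.41. Over all tested genes 0.408% fell and 16.7% lay below the mock range. *Rack1*, which encodes a scaffold bound to the small subunit, had 796, 711, 714 and 639.6 CPM in mock replicates 1 to 4 and 335 and 401 CPM in knockdown replicates 1 and 2, a log2 fold change of -0.96 (SE 0.14, adjusted p = 0.0390). *Non1*, a nucleolar GTPase gene, had 1036, 1093, 999 and 959 CPM in mock replicates 1 to 4 and 379 and 479.6 CPM in knockdown replicates 1 and 2, a log2 fold change of -1.25 (SE 0.15, adjusted p = 0.0225), and is highly expressed. The 70 tested mitochondrial ribosomal protein genes had a median of 0.26 and none past the threshold, with 21.4% above and 8.6% below the mock range, and their median was near mock in knockdown replicate 1 (-0.03) and raised in replicate 2 (0.44). Of 35 tested ribosome biogenesis genes and 19 aminoacyl-tRNA synthetase genes none passed, with medians of 0.07 and 0.16.

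Cytosolic ribosomal protein genes are short and strongly expressed. Among 753 other protein-coding genes shorter than 5 kb with at least 100 CPM in mock, 12 fell (1.59%, beside 0.408% of all tested genes) and none rose. Of these 753, 27.2% lay below and 5.3% above the mock range (16.7% and 14.6% over all tested genes), and the median was -0.14. Further downregulated genes of this kind were *Fer1HCH*, the ferritin heavy chain gene (506 and 610.2 CPM, mock 1001, 949.9, 1064 and 937 CPM, adjusted p = 0.0458), *AhcyL1* (-0.79), *cpb*, encoding capping protein beta (-0.77), *CG42240* (-1.22) and *CG9281* (-0.74, log2 fold changes). *Fer2LCH*, which encodes the ferritin light chain and overlaps *Fer1HCH* on the other strand, had 1301 and 1169 CPM after knockdown and 1963, 1779.99, 2500.2 and 2182 CPM in mock replicates 1 to 4, and did not pass (adjusted p = 0.0783).

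By median, the upregulated genes were longer than all tested genes and the downregulated genes somewhat shorter. Under 5 kb were 8 of the upregulated genes (27.6%), against 81.1% of downregulated and 67.1% of all tested genes. The median length of the gene body was 15457 bases for the 29 upregulated genes, 2068 for the 37 downregulated genes and 2825 over all tested genes, and 18 upregulated genes (62.1%) were at least 10 kb long, against 10.8% of downregulated and 19.5% of all tested genes. A median of 71.2% of the upregulated genes' bodies lay outside exons, against 21.3% for downregulated genes and 17.8% over all tested genes. Among all 88 tested genes of at least 100 kb, 3 rose (*Pzl*, *lovit* and *lncRNA:CR44999*) and none fell, beside 0.32% and 0.408% of all tested genes. Of the 88, 38.6% lay above and 12.5% below the mock range, against 14.6% and 16.7% over all tested genes. Their median log2 fold change was 0.20, or 0.22 in knockdown replicate 1 and 0.06 in replicate 2, against a spread of -0.12 to 0.09 among the mock libraries. These genes took 2.01% to 2.12% of counts in mock libraries and 2.60% and 2.37% after knockdown.

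Among protein-coding genes, the share above the mock range was 13.1% to 16.7% in each class of length up to 50 kb, 20.2% from 50 to 100 kb and 37.0% from 100 kb. The share below it was 20.8% between 5 and 10 kb and 12.3% from 100 kb. Over all tested genes 14.6% lay above and 16.7% below the mock range. Strongly expressed genes were more often below mock: of 774 protein-coding genes at 300 CPM or more, 33.7% lay below and 7.8% above the mock range, with a median of -0.19. The 720 genes at this level that do not encode ribosomal proteins had 31.5% below and a median of -0.17. In those 720 genes the median was -0.07 in knockdown replicate 1 and -0.29 in replicate 2, while the mock libraries ranged from -0.08 to 0.11. Library depth also differed between the groups, and its part in these shares was not tested.

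**Figure D3:**
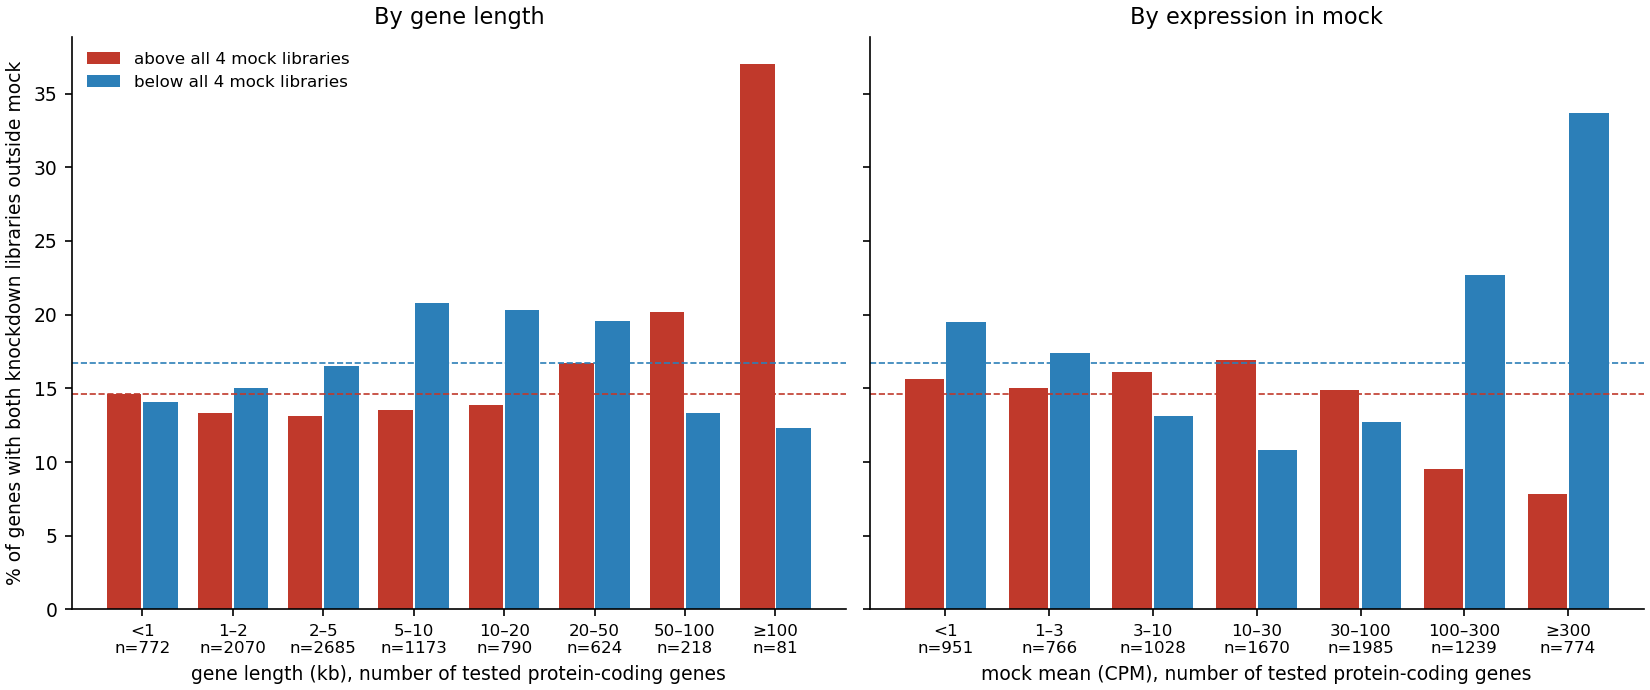
Percentage of tested protein-coding genes with both knockdown libraries above (red) or below (blue) all 4 mock libraries (vertical axis), by gene length (left) and by mean CPM in mock (right), with the number of genes n under each class. Dashed lines mark 14.6% and 16.7%, the shares over all tested genes, and the bars stand out for genes of at least 100 kb (37.0% above) and for genes of at least 300 CPM (33.7% below).

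By chromosome, no gene of chromosome 4 or of the Y chromosome passed the threshold. The 78 tested genes of chromosome 4, which is largely heterochromatic, had a median log2 fold change of 0.27, with 29.5% above and 7.7% below the mock range, and 43 of them were above the mock mean in both knockdown libraries (2379 of all 9066 tested genes). The medians in the mock libraries spread from -0.12 to 0.09, and those after knockdown were 0.31 and 0.11. The 1578 tested genes of chromosome X had a median of -0.08, with 10.5% above and 20.5% below. Over all tested genes these shares were 14.6% and 16.7%. Medians of the 4 large autosomal arms were between 0.01 and 0.03.

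Small structured RNAs differed more between the knockdown libraries than between the groups. Genes for tRNA, snRNA, snoRNA, rRNA and 7SL RNA took 0.163% and 0.179% of counts in mock replicates 1 and 2, 0.0723% and 0.0871% in mock replicates 3 and 4, 0.0686% in knockdown replicate 1 and 0.66% in replicate 2. Of 312 tRNA genes 17 were tested, of 31 snRNA genes 8 and of 268 snoRNA genes 9. Over these the median log2 fold change was 2.74, but -0.16 without knockdown replicate 2, and other than *tRNA:Pro-CGG-1-1* none passed the threshold. The filter needs a gene to be counted in at least 2 libraries, and some of these genes passed it by being high in replicate 2. *snRNA:U12*, of the minor spliceosome, had 2.07, 2.68, 0.412 and 0.564 CPM in mock replicates 1 to 4 and 0.999 and 66.9 CPM in knockdown replicates 1 and 2, and *snoRNA:Psi28S-3342*, which guides a ribosomal RNA modification, had 16.8, 16.5, 15.6 and 19.2 CPM in mock replicates 1 to 4 and 21.6 and 406 CPM in knockdown replicates 1 and 2. For the selenocysteine tRNA gene *tRNA:SeC-TCA-1-1* the values were 2.19, 6.57, 2.62 and 4.15 CPM in mock replicates 1 to 4 and 3.50 and 119.95 CPM in knockdown replicates 1 and 2. In each of these genes replicate 2 was far above the other 5 libraries, while replicate 1 was near mock. *7SLRNA:CR42652*, 299 bases long, was also highest in replicate 2.

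**Figure D4:**
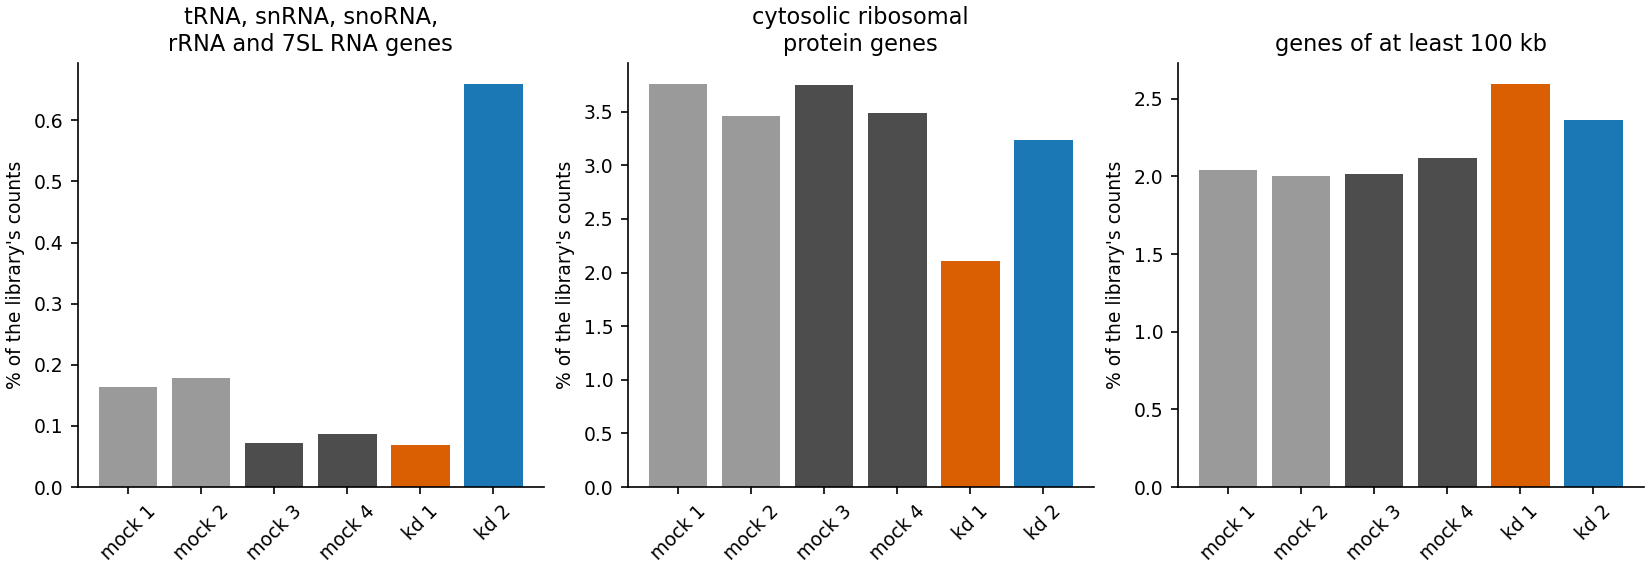
Percentage of each library's counts (vertical axes, from 0) on structured RNA genes (left), cytosolic ribosomal protein genes (middle) and genes of at least 100 kb (right) in mock replicates 1 to 4 and knockdown (kd) replicates 1 and 2. Structured RNAs are high in knockdown replicate 2 (0.66%), ribosomal protein genes are low in replicate 1 (2.11%), and genes of at least 100 kb are above mock in both (2.60% and 2.37%).

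Genes of the mitochondrial genome, 19 of 38 tested, had a median log2 fold change of 1.14 with none past the threshold. Of these, 42.1% lay above and 0.0% below the mock range, against 14.6% and 16.7% over all tested genes. The mock libraries themselves ranged from -0.47 to 0.32 in the median of these genes, being negative in replicates 1 and 2 and positive in replicates 3 and 4, and knockdown replicates 1 and 2 had 0.44 and 1.35. *mt:ND4* had 10.1, 24.3, 43.8 and 45.95 CPM in mock replicates 1 to 4 and 60.03 and 81.6 CPM in knockdown replicates 1 and 2. Nuclear genes of oxidative phosphorylation had a median of -0.05 over 73 tested genes, with *COX7AL* past the threshold (1.37%, beside 0.32% of all tested genes that rose). Of the 73, 8.2% lay above and 24.7% below the mock range.

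Of 58 function lists, 40 had no gene past the threshold. They hold 988 tested members, summed over the lists, and 0.728% of all tested genes were called. Over all tested genes, 14.6% lay above and 16.7% below the mock range. The 35 tested genes of RNA interference and the dsRNA response had a median of 0.16 with 22.9% above and 8.6% below the mock range. Polycomb group genes (22 tested) had a median of -0.17 with 36.4% below, and heterochromatin genes (18 tested) one of 0.01. Genes of TFIID and Mediator (44 tested), of RNA polymerase II, pausing and elongation (45 tested) and of the spliceosome (44 tested) had medians between -0.06 and -0.04. Toll and Imd genes (23 tested) had a median of -0.01, the unfolded protein and amino acid stress response (17 tested) -0.08, and DNA damage and apoptosis genes (27 tested) 0.15. Replication and cell cycle genes (62 tested) had a median of 0.11 with 19.4% above and 1.6% below. Single members of lists without calls lay beyond the mock range in either direction without passing, such as *Taf9* of TFIID (log2 fold change -1.01, adjusted p = 0.187), *IntS12* of the Integrator complex (-1.15, adjusted p = 0.112), the JAK-STAT receptor gene *dome* (-0.89, adjusted p = 0.0579) and, above mock, the glutathione transferase gene *GstE8* (0.98, adjusted p = 0.115).

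The *mod(mdg4)* knockdown was also set against *M1BP* knockdown (20 µg of dsRNA, replicates 2 and 3), another depletion by dsRNA in the same cells, where 571 of 8757 tested genes (6.52%) differed by edgeR's test. Both comparisons use the same *mod(mdg4)* knockdown libraries, so a gene chosen for its level in them is not tested anew, and counts and values are a description. Of the 29 genes upregulated against mock, 11 were higher than after *M1BP* knockdown, 2 lower and 16 not past the threshold, and of the 37 downregulated genes 24 were lower, none higher and 13 not past it. *su(Hw)* had 67.4 and 75.9 CPM in the *M1BP* knockdown libraries, and the log2 difference was 1.27 (SE 0.25, adjusted p = 0.00732). *RpS4* had 844 and 675 CPM there, with a difference of -1.73 (SE 0.28, adjusted p = 0.00197), and *Tdh* had 9.76 and 25.98 CPM, with a difference of -2.98 (SE 0.63, adjusted p = 0.0106). In these genes the *M1BP* knockdown libraries were thus on the same side as mock. *bowl* (-0.09, SE 0.57, adjusted p = 0.955) and *mew* (-0.10, SE 0.28, adjusted p = 0.888) were among those that did not pass. The upregulated genes that were lower than after *M1BP* knockdown were *asRNA:CR45137* (-1.84, SE 0.32, adjusted p = 0.00287) and *Hsp70Ba* (-1.56, SE 0.26, adjusted p = 0.00203). In the *M1BP* knockdown libraries both were above mock. *asRNA:CR45137* had 116 and 217 CPM there (mock 18.2 to 20.6) and *Hsp70Ba* 237 and 248 CPM (mock 40.9 to 50.0). *7SLRNA:CR42652* had 106 and 70.8 CPM after *M1BP* knockdown, against 34.5 and 213 CPM after *mod(mdg4)* knockdown, with a difference of 0.45 (SE 0.54, adjusted p = 0.706).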

How the data were processed

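The deposited table held raw counts per gene, which the authors made from stranded 50 bp single-end neuRNA-seq reads with cutadapt 2.7, HISAT2 2.1.0 (dm6), SAMtools 1.9 and featureCounts 1.6.4, counting reads over whole gene bodies, introns included. The submitters' processing notes also name DESeq2 1.22.1. Here, genes were filtered with filterByExpr, scaled by the trimmed mean of M values (TMM) and tested on the 6 libraries with edgeR 4.0.16's quasi-likelihood test (R 4.3.3), without covariates, with Benjamini-Hochberg adjustment over 9066 genes and a threshold of 0.05. DESeq2 1.42.0 was an alternative. The scripts were tested on simulated data. The 2 columns under a duplicated heading were not used.

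Named genes were the 15 largest increases and decreases past the threshold with values in every library, all other called genes, and, for each function list, called members and at most 2 further members of at least 10 CPM with the largest changes, together with overlapping or partner genes chosen after their values were seen. Of the 15 largest increases, 1 gene is not reported here. Members and lists were chosen with earlier results of these data known. Gene symbols came from an annotation of dm6, and a gene overlapped between groups unless both knockdown libraries lay beyond all mock libraries. Replicate numbers were not used to pair the samples in the main test.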

Additional observations from a re-analysis of the deposited data

Results flagged for a closer look

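Among 174 genes checked for 1 mock library far from the other 3, of which chance would give about 5%, 6 had one (the gap to the nearest of them, over the range of the 4, was above Dixon's 95% critical value). Mock replicate 3 was high for *CG15322* (10.8 CPM, others 8.10 to 8.31), *eIF3h* (246.7 CPM, others 216.6 to 221.6) and *magu* (29.2 CPM, others 24.2 to 24.9), which all fell after knockdown and were below the lowest mock library in both knockdown libraries. Mock replicate 1 was high for *Hsp70Bb* (77.9 CPM, others 59.6 to 61.3) and *Thor* (141.4 CPM, others 110.5 to 113 CPM). Mock replicate 4 was low for *e(y)3* (791.1 CPM, others 909.6 to 916.3).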

How the results depend on the processing

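Main counts were 29 upregulated and 37 downregulated genes, 10 of them for ribosomal proteins. DESeq2 gave 324 and 490 (34 ribosomal) without and 369 and 549 (34) with edgeR's filter. Library-size scaling gave 51 higher and 28 lower (64.6% higher, against 43.9%; 6 ribosomal). A model of 9 libraries gave 18 higher, a replicate block over replicates 1 and 2 gave 61 and 80 (28 ribosomal), and mock replicates 1 and 2 alone, or 3 and 4 alone, gave 0 and 0 (0 ribosomal; 619 and 722, and 567 and 637, at an unadjusted p below 0.05). An adjusted p below 0.01 left 0 and 2 (0 ribosomal), and a log2 fold change of at least 1 left 12 and 21 (4 ribosomal). Leaving out 1 library gave 0 to 653 higher, 0 to 634 lower and 0 to 16 ribosomal. The highest counts came without knockdown replicate 1, where the lone replicate is assumed to vary like the mock libraries. Same-numbered samples had correlations of deviations of -0.332 and 0.267, and crossed pairs had 0.332 and -0.267. With mock replicates 1 and 2 centred on their own mean, the correlation was -0.081. With 2 knockdown libraries the deviations mirror each other, so these values cannot decide whether replicate numbers pair the samples.

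The 66 called genes kept their direction under all alternatives that tested them, and 45 passed under at least 10 of 18. In each of the 66, both knockdown libraries lay beyond all mock libraries. The kept direction was thus nearly fixed beforehand, as all alternatives reuse these libraries, and is a description. The median of ribosomal protein genes was between -0.85 and -0.51. That of genes of at least 100 kb was 0.33 with library-size scaling and 0.04 without knockdown replicate 1. The median of tRNA, snRNA and snoRNA genes went from 2.74 to -0.16 without knockdown replicate 2, and to 3.99 without replicate 1. Among 108 named genes that did not pass, log2 fold changes changed sign in 24 cases, and the cause was not tested. With 1 library left out at a time, log2 fold changes ranged from -0.68 to 2.40 for *7SLRNA:CR32864*, from -0.024 to 0.80 for *cbc*, from -0.26 to 0.18 for *Cp190*, from -0.27 to 0.040 for *Dfd*, from -0.11 to 1.01 for *loqs*, from -0.79 to 1.58 for *mRpL2*, from -0.22 to 1.05 for *mt:lrRNA*, from -0.17 to 0.59 for *Mtp*, from -0.41 to 1.52 for *RNaseMRP:RNA*, from -0.69 to 3.99 for *snoRNA:Psi28S-2622*, from -2.74 to 0.38 for *snRNA:7SKa*, from -0.96 to 3.28 for *snRNA:U11*, from -0.52 to 5.50 for *snRNA:U12* and from -0.16 to 4.91 for *tRNA:SeC-TCA-1-1*. Knockdown replicates 2 and 1 were the libraries left out at these ends. *Cp190* also turned with library-size scaling (0.11), the replicate block (0.15) and mock replicates 1 and 2 alone (0.16), and *Dfd* under the same settings (0.030, 0.14 and 0.14). *snRNA:7SKa* turned against mock replicates 3 and 4 alone (1.06).

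With 11808443 and 7462623 counts, the knockdown libraries limit values of genes below about 1 CPM, where few counts were seen.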
